A study of Mus musculus with 6 samples.

Results

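The genes described here serve the unfolded protein response, by which cells adjust the protein-folding capacity of the endoplasmic reticulum (ER). The set was chosen by name: 10 genes, Hspa5, Hsp90b1, Calr, Canx, Pdia4, Dnajb9, Herpud1, Xbp1, Ern1 and Atf6, and each was found as 1 row of the deposited count table by its gene name, among 41921 rows in all. All 10 passed the filter on low counts, among 13158 genes tested. RNA sequencing covered 6 libraries of wild-type RAW264.7, a macrophage line from BALB/c mice from which the cytokine RANKL can raise osteoclasts. By label 3 libraries are RANKL and 3 are albiflorin, a glycoside found in peony, and all 6 share the label osteoclast differentiation and a protocol that names RANKL at 50 ng/mL. Whether the albiflorin cells received RANKL too is said nowhere else, the sources used here give neither dose nor time for albiflorin, and no untreated sample was analysed here. Library totals ran from 13673284 to 15489482 counts. The labels do not tie the replicates to separate cultures, and the p-values therefore reflect the spread among these 6 libraries, which may be technical.

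The unfolded protein response is switched on when unfolded proteins gather in the ER lumen. Its sensors in the ER membrane are IRE1 (gene Ern1), ATF6 (Atf6) and PERK (Eif2ak3), and the lumenal chaperone BiP (Hspa5) binds them at rest. IRE1 splices the Xbp1 mRNA, ATF6 is cleaved in the Golgi to release a transcription factor, and PERK slows translation by phosphorylating eIF2α. The released factors raise chaperones, oxidoreductases and components that send misfolded proteins to the proteasome. Gene counts measure neither Xbp1 splicing, nor ATF6 cleavage, nor eIF2α phosphorylation.

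The promoters of several members share an element known from this response. The ER stress response element (ERSE), CCAAT followed after 9 bases of any kind by CCACG, is known as the binding site of ATF6 together with NF-Y. It was searched on both strands of the RefSeq promoter windows of build GRCm38.p6, which run from 250 bases before to 50 bases after a gene's start and cover 9 of the 10 members (not Atf6). Hspa5, Hsp90b1, Calr and Canx held it, against 0.137% of the 27025 genes searched. Both the members and the element are known parts of this response. The matches are therefore a description and not an independent property of the set. These windows are on another build than the gene positions given further on, which are those of the deposited table. Within this set the genes with an ERSE are also those with the highest levels, given below. Whether the element goes with level outside the set was not tested. The matches are shown with the element in capitals and 8 flanking bases in lower case, on the gene's strand, 5′ to 3′:
Hspa5, chr2:34772017-34772051, plus strand: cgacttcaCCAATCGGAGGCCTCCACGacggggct
Hsp90b1, distal, chr10:86705630-86705664, minus strand: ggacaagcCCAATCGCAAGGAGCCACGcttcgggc
Hsp90b1, proximal, chr10:86705525-86705559, minus strand: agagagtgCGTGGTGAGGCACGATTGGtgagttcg
Calr, chr8:84847067-84847101, minus strand: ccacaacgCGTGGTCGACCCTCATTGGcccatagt
Canx, chr11:50325792-50325826, minus strand: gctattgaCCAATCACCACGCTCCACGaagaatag
Herpud1, chr8:94386369-94386395, plus strand: gggcgctgATTGGGCCACGttggacac
The proximal Hsp90b1 match and the Calr match lie in reverse orientation. The Herpud1 sequence holds a related element, ERSE-II (ATTGG, any base, CCACG), which ends in the same 5 letters CCACG as ERSE and occurs in 0.0444% of genes searched. Hspa5 also held the UPRE core TGACGTG, a site known for XBP1, at -157 to -151 from the start, apart from its ERSE at -65 to -47; 2.22% of genes held that core. Pdia4, Dnajb9, Xbp1 and Ern1 held none of these letters in this window, which says nothing of other windows or looser matches.

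The members spanned a wide range of levels, with Calr at the top and Ern1 at the bottom by deposited FPKM. Levels are given here as FPKM, counts scaled to listed gene length and library total, as deposited by the authors. That length differs from the mRNA length used further on (Dnajb9 1865 against 2461 nt, Ern1 8173 against 6946 nt, Hsp90b1 4032 against 2825 nt). The order of close neighbours therefore depends on the length used. In RANKL libraries the lectin chaperone gene Calr was highest at 328 ± 32.7 FPKM (SD, n = 3), followed by Hspa5 at 252 ± 2.02, Hsp90b1, which encodes the ER HSP90 GRP94, at 241 ± 1.56, and Canx, which encodes the membrane-bound lectin chaperone calnexin, at 219.7 ± 6.68 FPKM. Canx, the lowest of these 4, lay above 98.7% of the tested genes, while Atf6 lay above 87.4% and Ern1 above 54.9%. The transcription factor gene Xbp1 stood at 81.9 ± 2.31 FPKM and the disulphide isomerase gene Pdia4 at 68.8 ± 1.33 FPKM. Atf6 stood at 37.0 ± 1.86 and Herpud1, which encodes a membrane adaptor of ER-associated degradation, at 32.4 ± 1.73 FPKM. The lowest were Dnajb9, the BiP co-chaperone ERdj4, at 11.2 ± 0.688 FPKM and Ern1 at 10.1 ± 0.606 FPKM.

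Neighbours in this order did not overlap over the RANKL libraries, apart from Dnajb9 and Ern1. With albiflorin the order was the same except that Herpud1 (39.1 ± 1.27 FPKM) lay above Atf6 (30.4 ± 2.58 FPKM), where the RANKL libraries had Atf6 above Herpud1. No neighbours overlapped with albiflorin, and Dnajb9 (12.2 ± 0.609 FPKM) then lay clear of Ern1 (7.13 ± 0.362 FPKM). Together the members took 0.494% to 0.508% of all counts in RANKL libraries and 0.505% to 0.514% in albiflorin libraries, ranges that overlap.

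**Figure D1:**
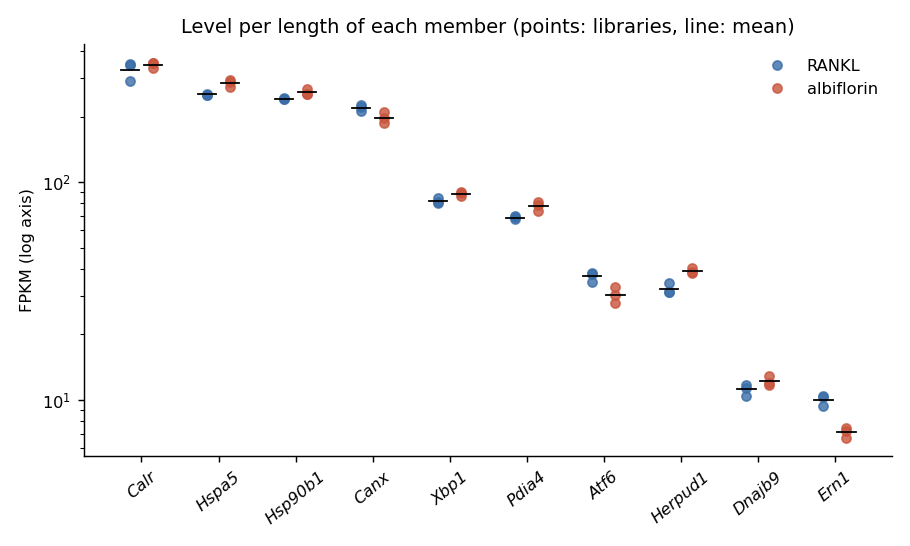
Deposited FPKM (log axis) of each member in each library, RANKL in blue and albiflorin in red, with a line at the group mean. Calr, Hspa5, Hsp90b1 and Canx lie near the top, and Herpud1 and Atf6 change places between the groups.

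Between the groups, Ern1 and Atf6 fell with albiflorin and Herpud1, Pdia4 and Hspa5 rose. The changes were modest, from -28.9% (Ern1) to 21.2% (Herpud1) as fitted. The test was edgeR's quasi-likelihood F-test over all 13158 genes, with a call at a Benjamini-Hochberg adjusted p under 0.05. By this rule 3 of the 10 members were higher and 2 lower, and the median log2 fold change of the members was 0.11 against 0.0056 for all tested genes. Of all tested genes 23.8% were called, 12.4% higher and 11.4% lower, so 5 calls among 10 members stand beside a high background. Only 1 member was called higher, and 2 lower, on leaving out any 1 of RANKL replicates 1 to 3 or albiflorin replicates 1 and 2; without albiflorin replicate 3 the counts were 3 and 3. A p that misses the threshold does not show that a gene did not differ. The groups' libraries did not overlap for 8 members, 5 higher and 3 lower with albiflorin, where 40.1% of all tested genes showed no overlap. CPM values (counts scaled to the TMM-adjusted library total) are used for the differences below, since they compare libraries within a gene.

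**Figure D2:**
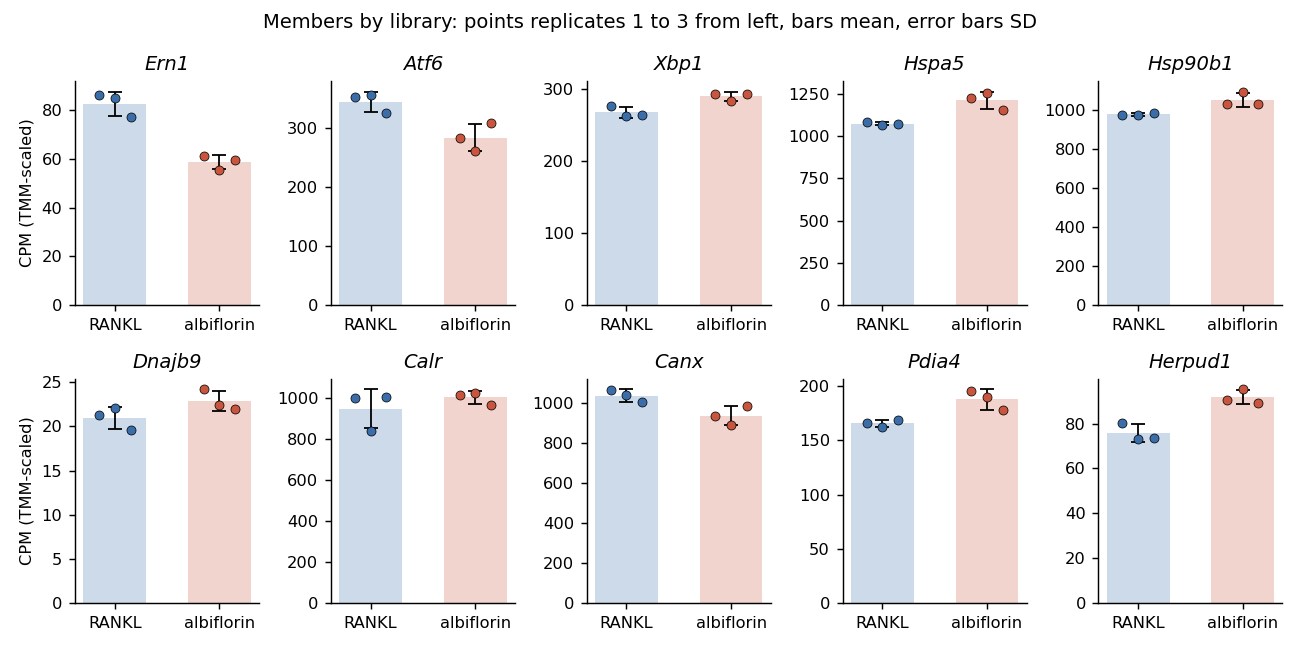
TMM-scaled CPM (axis from 0) of each member, with replicates 1 to 3 as points from left to right, group means as bars and SD as error bars (n = 3 per group). The albiflorin points of Ern1 and Atf6 lie below all RANKL points, those of Hspa5, Pdia4 and Herpud1 lie above, and those of Calr and Dnajb9 overlap with RANKL.

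Among the sensors and their factor, Ern1 changed most of all members. Ern1 (MGP_C57BL6NJ_G0019700, chromosome 11, 113041732 to 113159799, minus strand) had 86.0, 84.7 and 76.9 CPM in RANKL replicates 1 to 3 and 61.1, 55.4 and 59.4 CPM in albiflorin replicates 1 to 3. Every albiflorin library was lower than every RANKL library. The mean fell from 82.5 ± 4.92 to 58.7 ± 2.92 CPM (SD, n = 3 each). On the log2 scale this was -0.49 ± 0.0693 (SE), with an edgeR adjusted p of 0.000377. Ern1 was the only member called under each of the 14 alternatives run, with adjusted p from 1.97e-09 to 0.0178.

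Atf6 (MGP_C57BL6NJ_G0017135, chromosome 1, 182263895 to 182442256, minus strand) had 352, 355 and 324 CPM with RANKL and 282, 260.3 and 307 CPM with albiflorin. The groups did not overlap, and albiflorin replicate 3 came nearest to RANKL. The log2 fold change was -0.28 ± 0.0689 (SE, edgeR adjusted p = 0.00854). Xbp1, the factor whose mRNA IRE1 splices (MGP_C57BL6NJ_G0018394, chromosome 11, 2652542 to 2657804, plus strand), had 276, 262 and 264 CPM with RANKL and 293, 282 and 293 CPM with albiflorin. These ranges do not overlap, but the log2 fold change of 0.12 ± 0.0579 (SE) did not pass the test (edgeR adjusted p = 0.162) or any of the 14 alternatives.

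Among the lumenal chaperones only Hspa5 passed. Hspa5 (MGP_C57BL6NJ_G0026058, chromosome 2, 34346327 to 34353321, plus strand) had 1082, 1064 and 1069 CPM with RANKL and 1225, 1254 and 1156 CPM with albiflorin. The RANKL libraries lay close together (SD 8.91 CPM), the albiflorin libraries were more spread (SD 50.4 CPM), and all of the latter were higher. The log2 fold change was 0.18 ± 0.0612 (SE, edgeR adjusted p = 0.0451). This call lay close to the threshold and was lost without RANKL replicate 1 (adjusted p = 0.0985), 2 (0.09) or 3 (0.126), without albiflorin replicate 1 (0.168) or 2 (0.109), with RLE scaling (0.0512), with no filter (0.0574) and on FPKM (0.0778 with a pseudocount of 1). It was kept with DESeq2 (0.0122) and without albiflorin replicate 3 (0.0234).

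Hsp90b1 (MGP_C57BL6NJ_G0018011, chromosome 10, 90638209 to 90655281, minus strand) had 973, 973 and 985 CPM with RANKL and 1027, 1092 and 1029.6 CPM with albiflorin. The groups did not overlap, yet the log2 fold change of 0.10 ± 0.0601 (SE) was not called (edgeR adjusted p = 0.231). Dnajb9 (MGP_C57BL6NJ_G0020099, chromosome 12, 44041413 to 44045584, minus strand) was the scarcest member by counts, with 290 to 346 counts per RANKL library and 302 to 367 per albiflorin library. Its CPM values of 21.3, 22.0 and 19.6 with RANKL and 24.2, 22.4 and 22.0 with albiflorin overlapped (log2 fold change 0.13 ± 0.0943, edgeR adjusted p = 0.358).

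The lectin chaperones calreticulin and calnexin hold newly made glycoproteins in the ER until they fold; calreticulin is soluble and calnexin spans the membrane. Neither gene was called. Calr (MGP_C57BL6NJ_G0034369, chromosome 8, 89046694 to 89051778, minus strand) had 999, 837 and 1006 CPM with RANKL and 1017, 1026 and 967 CPM with albiflorin. RANKL replicate 2 was lower than the other 5 libraries, and the groups overlapped (log2 fold change 0.08 ± 0.0732, edgeR adjusted p = 0.449). Canx (MGP_C57BL6NJ_G0018636, chromosome 11, 50928175 to 50968057, minus strand) had 1064, 1040.4 and 1002 CPM with RANKL and 932, 888 and 985 CPM with albiflorin. All albiflorin values were below all RANKL values (log2 fold change -0.15 ± 0.0633, edgeR adjusted p = 0.105). Canx passed with DESeq2 (adjusted p = 0.048) and without albiflorin replicate 3 (0.0491).

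Pdia4, a member of the protein disulphide isomerase family, which forms and rearranges disulphide bonds (MGP_C57BL6NJ_G0031120, chromosome 6, 47721284 to 47738573, minus strand), had 166, 162 and 169 CPM with RANKL and 196, 189.9 and 178 CPM with albiflorin. The groups did not overlap, and the log2 fold change was 0.18 ± 0.0602 (SE, edgeR adjusted p = 0.0387). The call was kept with RLE scaling (adjusted p = 0.0444), with DESeq2 (0.0378) and without albiflorin replicate 3 (0.0177). It was lost without RANKL replicate 1 (0.0949), 2 (0.106) or 3 (0.0803), without albiflorin replicate 1 (0.213) or 2 (0.0841), with no filter (0.0742) and on FPKM (0.0562 with a pseudocount of 1).

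Herpud1 had the largest increase among the members. Herpud1 (MGP_C57BL6NJ_G0034456, chromosome 8, 99297839 to 99306760, plus strand) had 80.4, 73.2 and 73.5 CPM with RANKL and 90.7, 95.2 and 89.1 CPM with albiflorin, with no overlap. The log2 fold change was 0.28 ± 0.0646 (SE, edgeR adjusted p = 0.00617). Leaving out any 1 library kept this call, with adjusted p from 0.00653 to 0.0305.

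The direction of the members followed mRNA length, which also ordered the fold changes of the tested genes at large. Ern1 (6946 nt), Atf6 (7246 nt) and Canx (4281 nt) have the longest mRNAs of the set in GENCODE M21 and the only negative log2 fold changes; the other 7 range from 1952 nt (Herpud1) to 3672 nt (Hspa5). The trend fitted over all genes, as the albiflorin minus RANKL difference on the log2 scale, was -0.22 at the length of Atf6, -0.21 at that of Ern1, -0.09 at that of Canx, -0.05 at that of Hspa5 and 0.12 at that of Herpud1. With each library's mRNA-length trend removed, 1 member was higher and 1 lower, beside 4.91% and 5.54% of all tested genes (10.4% in either direction). Ern1 stayed lower (-0.28 ± 0.0588, edgeR adjusted p = 0.00802), and Hspa5 was higher by more than before (0.23 ± 0.0512, edgeR adjusted p = 0.0107).

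The other 3 calls ended with that trend removed. Atf6 moved to -0.06 (edgeR adjusted p = 0.507), Herpud1 to 0.16 (0.0814) and Pdia4 to 0.12 (0.146). With the trend on the gene length listed in the table removed instead, 1 member was higher and 1 lower, beside 7.18% and 7.96% of all tested genes (15.1% in either direction). Ern1 (-0.35, adjusted p = 0.00156) and Hspa5 (0.19, 0.0234) were again called, and Atf6 (-0.12, 0.153), Herpud1 (0.15, 0.0779) and Pdia4 (0.06, 0.45) were not. Of the uncalled members, Calr then stood at 0.00 (-0.0021) with the mRNA-length trend removed and Dnajb9 at -0.05 with the gene-length trend removed, each on the other side of 0 from its value above. Xbp1 stood at 0.02 and Canx at -0.06 with the mRNA-length trend removed, both uncalled.

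**Figure D3:**
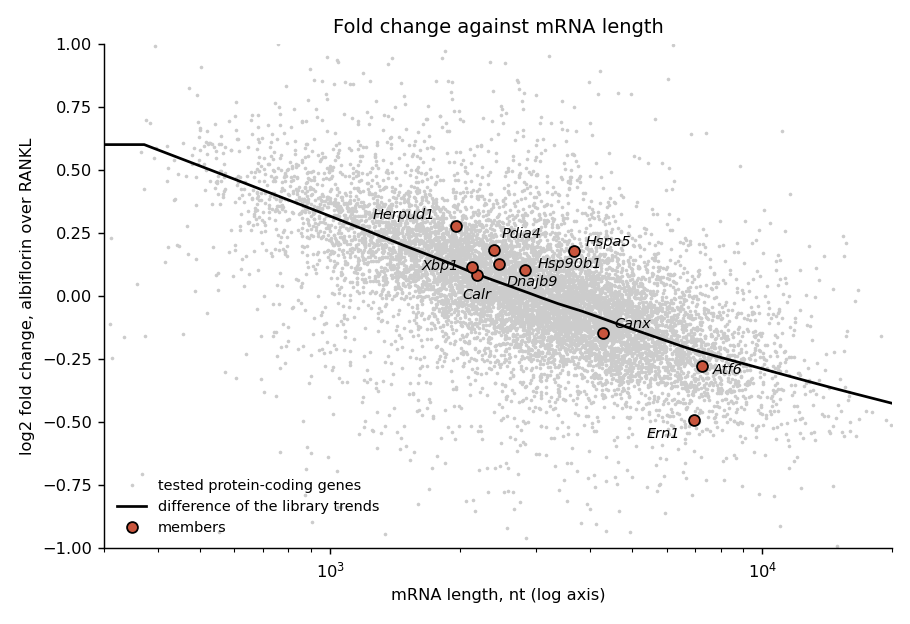
Log2 fold change (albiflorin over RANKL) against mRNA length (log axis) for tested protein-coding genes in grey and the members in red, with the fitted trend as a line. The axes leave out 60 of 10445 grey points, and among the members Hspa5 and Ern1 lie farthest from the line.

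**Figure D4:**
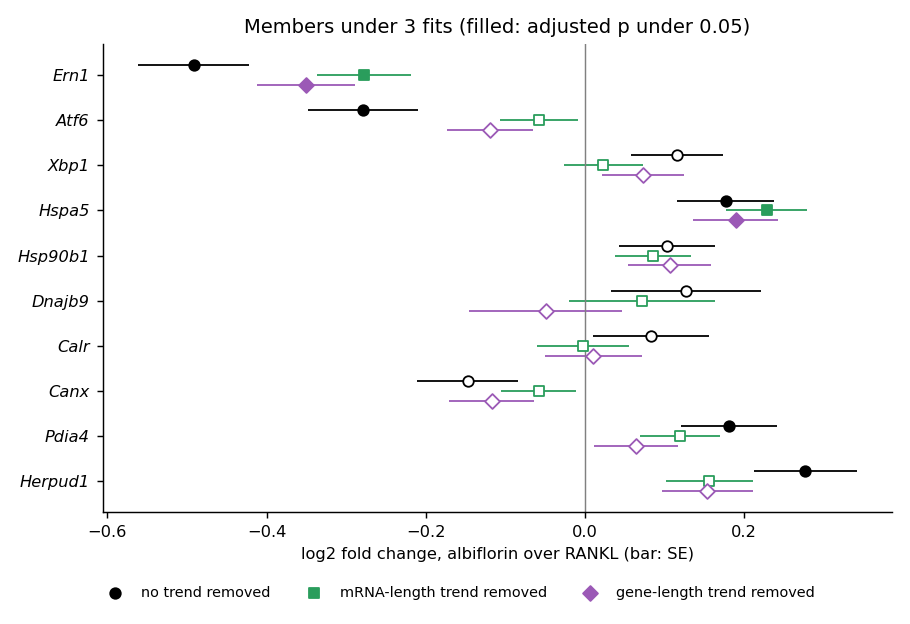
Log2 fold change with SE of each member with no trend removed (black), with the mRNA-length trend removed (green) and with the gene-length trend removed (purple), filled where the adjusted p was under 0.05. Ern1 and Hspa5 are filled in all 3, while Atf6, Pdia4 and Herpud1 are filled only in black.

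The libraries differed in how far they carried these differences. Over the 8 members whose groups did not overlap, albiflorin replicate 2 was farthest from the RANKL mean for 6 and albiflorin replicate 3 nearest for 5. The length trend was ordered in the same way: at the length of Ern1 it stood at -0.18 (log2, against the mean of the 6 libraries) in albiflorin replicate 2, at -0.10 in replicate 1 and at -0.04 in replicate 3. Among RANKL libraries it was 0.16 in replicate 2, 0.10 in replicate 1 and 0.07 in replicate 3. The part of mRNA length in these differences between libraries was not tested further.

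Ratios of counts within a library need no scaling between libraries and show how the balance of the set moved; they are given as a description, with no test, and share the length difference of their genes. Hspa5 counts per Ern1 count were 12.6, 12.6 and 13.9 with RANKL and 20.04, 22.6 and 19.5 with albiflorin, so BiP mRNA per IRE1 mRNA was 1.59 times as high. Hspa5 per Atf6 went from 3.12 ± 0.158 to 4.31 ± 0.527 (SD, n = 3 per group), and Xbp1 per Ern1 from 3.24 ± 0.171 to 4.94 ± 0.148. None of these 3 ratios overlapped between groups. This follows from the CPM values above, in which numerators were higher and denominators lower in every albiflorin library than in any RANKL library. It adds no separate result. Hspa5 per Canx, whose mRNAs are closer in length, went from 1.04 ± 0.0275 to 1.30 ± 0.12, without overlap for the same reason. Hspa5 per Hsp90b1 moved least, from 1.10 ± 0.0133 to 1.15 ± 0.0357, also without overlap. The soluble to membrane lectin ratio, Calr per Canx, was 0.939, 0.805 and 1.00 with RANKL and 1.09, 1.16 and 0.982 with albiflorin, and these overlapped.

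Of the 4 members with an ERSE in their promoter window, Hspa5 rose and Hsp90b1, Calr and Canx were not called. Another 11 tested genes with an ERSE, found after these values were seen, held no call by edgeR, beside 23.8% of all tested genes, or by DESeq2 or limma on FPKM. At an unadjusted p under 0.05 (edgeR) 3 were higher and 1 lower, beside 18.5% and 17.2% of all tested genes, and their median log2 fold change was 0.07, or 0.0026 with the mRNA-length trend removed. Of those that encode ER proteins of the lists below, Creld2 (0.22, edgeR adjusted p = 0.0798), Pdia6 (0.15, 0.106) and Syvn1 (0.08, 0.458) had positive values, and Ero1lb (-0.25, 0.0712) and Dnajc3 (-0.11, 0.239) negative ones. Leaving out 1 library gave calls for Creld2 (without RANKL replicate 1) and Ero1lb (without RANKL replicate 3 or albiflorin replicate 3).

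The rest of the pathway was described from 8 lists, for which 135 of 136 symbols were found. Among the PERK branch, the translation-control arm, 6 of 11 tested genes rose and 0 fell, beside 12.4% and 11.4% of all tested genes (also 0 lower at an unadjusted p under 0.05 by edgeR, with DESeq2 and on FPKM), with a median log2 fold change of 0.18. Ppp1r15a, which encodes the phosphatase subunit that restores translation, had 23.1, 23.0 and 27.2 CPM with RANKL and 44.7, 36.0 and 47.4 CPM with albiflorin (0.81 ± 0.106, edgeR adjusted p = 0.000284). Nupr1, a small stress-induced chromatin protein (0.56 ± 0.0818), the transcription factor gene Atf4 (0.34 ± 0.0564) and Asns, asparagine synthetase and an ATF4 target (0.30 ± 0.0641), rose as well. With the mRNA-length trend removed 5 genes of this list were higher and 0 lower (median 0.18), beside 4.91% and 5.54% of all tested genes, and with the gene-length trend removed 3 and 0, beside 7.18% and 7.96%. Nupr1 was not called with the former removed (adjusted p = 0.115) and Atf4 was not called with the latter removed (0.0708). The list's 6 calls became 4 without RANKL replicate 1, 2 or 3 or albiflorin replicate 1, and 5 without albiflorin replicate 2. Whether PERK itself lay behind these calls was not tested, since gene counts do not measure eIF2α phosphorylation. Eif2ak3, which encodes PERK itself, was not called (-0.12 ± 0.0763, adjusted p = 0.265), and Ddit3, which encodes the factor CHOP (0.12 ± 0.123, adjusted p = 0.54), was not either; with the mRNA-length trend removed Ddit3 stood at -0.24 (0.131).

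Among other sensors and transducers of the response, 0 of 11 tested genes rose (also 0 at an unadjusted p under 0.05 by edgeR, with DESeq2 and on FPKM) and 4 fell, beside 12.4% and 11.4% of all tested genes, and the median was -0.13. Those 4 were Map3k5, the kinase ASK1 downstream of IRE1 (-0.30 ± 0.0779), Mbtps1 (-0.22 ± 0.0714) and Mbtps2 (-0.22 ± 0.0642), the Golgi proteases that cleave ATF6, and Atf6b, the paralogue of Atf6 (-0.19 ± 0.0598). With the mRNA-length trend removed only Atf6b was called (-0.23, adjusted p = 0.0132), and with the gene-length trend removed the count was 2. Atf6b and Mbtps1 lost their calls without any 1 library other than albiflorin replicate 3 (highest adjusted p 0.122 and 0.112), and Map3k5 (highest 0.0578) and Mbtps2 (highest 0.0849) without RANKL replicate 2 or albiflorin replicate 1. Calls of the list thus went from 4 to none without RANKL replicate 2 or albiflorin replicate 1, and to 2 without RANKL replicate 1 or 3 or albiflorin replicate 2.

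ER chaperones and co-factors outside the member set held 3 higher and 2 lower of 22 tested, shares near those of all tested genes (12.4% and 11.4%), with a median of 0.12. Manf, which encodes a secreted ER-stress protein that binds BiP, had 150.2, 139 and 155 CPM with RANKL and 200.1, 212 and 174 CPM with albiflorin (0.40 ± 0.0735, edgeR adjusted p = 0.00155), and was called under all 14 alternatives. Fkbp2, a lumenal prolyl isomerase with a short mRNA, rose (0.28 ± 0.081), and Uggt1, the glucosyltransferase that sends misfolded glycoproteins back to calnexin and calreticulin (-0.28 ± 0.0638), and Dnajc1, a membrane-bound J-domain protein (-0.23 ± 0.0761), fell. These 3 calls ended with the mRNA-length trend removed (Fkbp2 -0.16, adjusted p = 0.0856; Uggt1 -0.01, 0.922; Dnajc1 -0.08, 0.461), when the list held 2 higher and 0 lower. Fkbp2 was also lost without RANKL replicate 2 (0.0861) or albiflorin replicate 1 (0.0556) or 2 (0.111), and Dnajc1 without RANKL replicate 1 (0.0691) or 2 (0.15) or albiflorin replicate 1 (0.0597) or 2 (0.132). The list held 1 higher and 1 lower without albiflorin replicate 1 or 2, and 1 lower without RANKL replicate 1 or 2.

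Disulphide oxidoreductases, the family that includes Pdia4, held 6 higher and 0 lower of 17 tested, beside 12.4% and 11.4% of all tested genes, with a median of 0.07. DESeq2 and limma on FPKM also called 0 lower, while at an unadjusted p under 0.05 by edgeR 1 was lower. That gene was Ero1lb, an oxidase that recharges the isomerases, named after its values were seen (-0.25 ± 0.0952, edgeR adjusted p = 0.0712), and it was called lower with no filter (0.0261) and without RANKL replicate 3 (0.0466) or albiflorin replicate 3 (0.0132). P4hb, the founding protein disulphide isomerase, had 1134, 1001 and 1044 CPM with RANKL and 1246, 1256 and 1225 CPM with albiflorin (0.23 ± 0.0645, edgeR adjusted p = 0.0171). The peroxiredoxin gene Prdx4 (0.37 ± 0.0666), Txndc12 (0.26 ± 0.072) and Erp29 (0.24 ± 0.0662) also rose. Pdia3, the partner of calreticulin and calnexin, named after its values were seen, rose too (0.22 ± 0.0636, adjusted p = 0.0192). With the mRNA-length trend removed 4 genes of the list were higher, beside 4.91% of all tested genes. They included P4hb (0.22, adjusted p = 0.0144), Pdia3 (0.20, 0.0221) and Erp29 (0.38, 0.00328, at an annotated mRNA length of 5204 nt). Prdx4 (0.624) and Txndc12 (0.758) were not called. With the gene-length trend removed 3 were higher, beside 7.18% of all tested genes. These were Erp29 (edgeR adjusted p = 0.00164), Prdx4 (0.0141) and Pdia3 (0.0413), while P4hb (0.0597) was not called. Limma on FPKM called neither P4hb nor Pdia3. Calls were lost on leaving out a library for P4hb (RANKL replicate 2 or 3 or albiflorin replicate 1, up to 0.0726), Erp29 (RANKL replicate 2 or albiflorin replicate 1 or 2, up to 0.0683) and Txndc12 (RANKL replicate 2 or 3 or albiflorin replicate 2, up to 0.0665), and Pdia3 (RANKL replicate 2 or albiflorin replicate 1 or 2). The list's 6 calls became 1 without RANKL replicate 2, 3 without RANKL replicate 3 and 2 without albiflorin replicate 1 or 2.

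ER-associated degradation, the route to which Herpud1 belongs, held 2 higher and 4 lower of 24 tested, beside 12.4% and 11.4% of all tested genes, with a median of 0.06. Nploc4, a co-factor of the p97 ATPase that extracts proteins from the membrane, had 108, 109 and 101 CPM with RANKL and 86.8, 81.4 and 88.4 CPM with albiflorin (-0.31 ± 0.063, edgeR adjusted p = 0.00263). Sel1l, the adaptor of the Hrd1 ubiquitin ligase, fell (-0.25 ± 0.068), and Aup1 (0.31 ± 0.065) and Vimp (0.33 ± 0.0782) rose. Nploc4 was called under all 14 alternatives. With the mRNA-length trend removed it was the only call of the list (-0.23, adjusted p = 0.0113), and the list's median was 0.05. With the gene-length trend removed the list held 3 higher and 1 lower, beside 7.18% and 7.96% of all tested genes. Aup1 (edgeR adjusted p = 0.00547) was then called higher and Nploc4 (0.00396) lower, while Vimp (0.488) and Sel1l (0.228) were not called. Sel1l was also lost without RANKL replicate 1 (0.0589) or 2 (0.0613). The list's 4 lower calls became 1 without RANKL replicate 1 or 2 and 2 without albiflorin replicate 1 or 2.

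Protein import into the ER held the most calls, with 11 of 22 tested genes higher and 0 lower, beside 12.4% and 11.4% of all tested genes, and a median of 0.20. At an unadjusted p under 0.05 by edgeR 1 gene was lower, as it was with DESeq2, and on FPKM 0 were. That gene was Sec61a1, a translocon subunit, named after its values were seen (-0.19 ± 0.069, edgeR adjusted p = 0.0566). Sec61g, a translocon subunit, had 37.7, 41.3 and 36.6 CPM with RANKL and 56.2, 63.8 and 51.5 CPM with albiflorin (0.57 ± 0.0861, edgeR adjusted p = 0.000504) and was called under all 14 alternatives. Its annotated mRNA length was 1862 nt, against 564 nt for Sec61b, and the size of the trend removed depends on that length. Sec61b (0.57 ± 0.0971), Ssr4 (0.39 ± 0.0623) and the signal peptidase subunit gene Sec11c (0.34 ± 0.067), all with short mRNAs, rose, but none of them was called with the mRNA-length trend removed (0.602, 0.953 and 0.817), when the list held 4 higher beside 4.91% of all tested genes. With the gene-length trend removed it held 9, beside 7.18%.

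Oligosaccharyltransferase, which attaches N-glycans, held 4 higher and 1 lower of 12 tested, beside 12.4% and 11.4% of all tested genes, with a median of 0.17. Krtcap2 rose (0.53 ± 0.0773) and was called under all 14 alternatives. Tmem258 (0.47 ± 0.102), Ostc (0.29 ± 0.0701) and the ribophorin gene Rpn1 (0.21 ± 0.0596) rose as well. With the mRNA-length trend removed Krtcap2 (0.27, adjusted p = 0.00778) and Rpn1 (0.26, 0.00561) were called and the other two were not. Rpn1 was lost without RANKL replicate 2 (0.0699) or 3 (0.0529) or albiflorin replicate 1 (0.079). The lower gene, Stt3b, a catalytic subunit, named after its values were seen (-0.18 ± 0.0606, adjusted p = 0.0403), lost its call without any 1 library other than albiflorin replicate 3.

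COPII export, which carries folded cargo out of the ER, held 2 higher and 4 lower of 14, beside 12.4% and 11.4% of all tested genes, with a median of -0.02. Sec13 rose (0.34 ± 0.0716), and Sec16a (-0.36 ± 0.078), Sec24c (-0.23 ± 0.0606) and Sec24b (-0.23 ± 0.066) fell. No gene of this list was called with the mRNA-length trend removed, against 1 higher and 2 lower with the gene-length trend removed. Sec24c was lost without RANKL replicate 1 (0.0511) or albiflorin replicate 1 (0.0714), and Sec24b without RANKL replicate 2 (0.083) or albiflorin replicate 1 (0.0683). The 2 higher calls of the list became 1 without any 1 library other than albiflorin replicate 3, and the 4 lower calls became 2 without RANKL replicate 2 and 1 without albiflorin replicate 1.

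**Figure D5:**
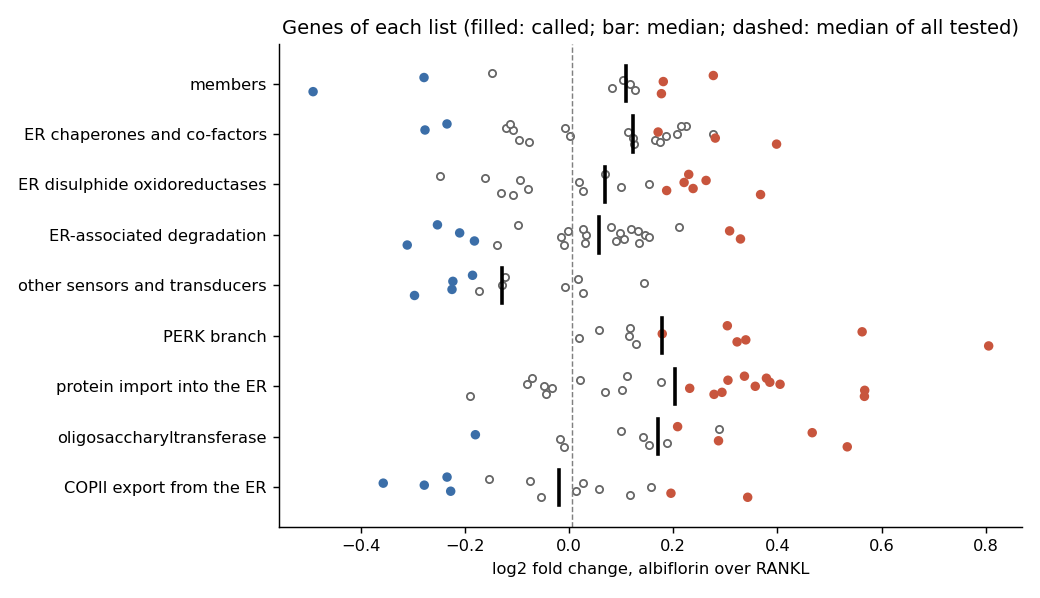
Log2 fold change of each tested gene by list, filled red where called higher, filled blue where called lower and open where not called, with a bar at the list's median. The dashed line marks the median of all tested genes, and the medians run from -0.13 for other sensors and transducers to 0.20 for protein import.

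The libraries carried the markers of a macrophage line. Of 9 macrophage markers 8 were found and 7 exceeded 5 CPM, with a summed level of 3913 to 4208 CPM with RANKL and 4037 to 4215 CPM with albiflorin, but Itgam had at most 0.073 CPM. Within this sum single markers moved in opposite directions. Csf1r and Adgre1 were lower in every albiflorin library than in any RANKL library, and Cd68, Cd14 and Spi1 were higher. Ptprc and Fcgr3 overlapped. Of all tested genes 40.1% showed no overlap. Osteoclast markers summed to 57.2 to 61.6 CPM with RANKL and 63.5 to 72.1 CPM with albiflorin. Of these 9 markers 4 exceeded 5 CPM on average, namely Acp5, Dcstamp, Mmp9 and Atp6v0d2. Acp5 was higher in every albiflorin library (26.5 to 29.7 CPM) than in any RANKL library (20.9 to 25.1 CPM). Dcstamp, Mmp9 and Atp6v0d2 overlapped between the groups. Ctsk stayed under 1 CPM and Calcr was at 0 in all libraries. Lymphocyte and plasma cell markers, relevant because plasma cells have a large ER, summed to 20.4 to 23.6 CPM with RANKL and 19.7 to 23.9 CPM with albiflorin, nearly all from Sdc1, with Cd3e at 0 and Jchain at or under 0.132 CPM. Fibroblast and osteoblast markers summed to at most 7.65 CPM and epithelial markers to at most 0.141 CPM. Fewer cells of a type and less RNA per cell cannot be told apart in such bulk libraries.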

How the data were processed

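Total RNA of 6 RAW264.7 libraries was sequenced. The submitters' processing notes list, without saying what each did, DESeq2 1.42.0, featureCounts 2.0.6-p3, HISAT2 2.2.1, fastp and CASAVA 1.8. The authors deposited raw whole-number counts per gene, and FPKM values that equal those counts over listed gene length and a library total (from -0.95% to 1.65% off the column total). The sources used here give neither genome build nor use of strand, so overlapping genes may share counts; coordinates are those of the deposited table, whose identifiers carry the C57BL/6NJ prefix, except promoter windows (RefSeq, GRCm38.p6).

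Samples were grouped by title. Counts were tested with edgeR 4.0.16 (R 4.3.3): filterByExpr, TMM, quasi-likelihood F-test on group alone, Benjamini-Hochberg over all tested genes. SE was taken as the size of the log2 fold change over the square root of F. The edgeR and DESeq2 fits and the removal of a gene-length trend were run on simulated counts with the same dispersion for all genes. Removal of the mRNA-length trend was not simulated. The 14 alternatives were RLE scaling, DESeq2 1.42.0, no filter, the replicate number as a block, removal of each library's lowess trend (span 0.3) on listed gene length or on the mRNA length of the principal transcript in GENCODE M21 (found for 79.8% of tested genes, listed length otherwise), limma 3.58.1 on log2(FPKM + 1) and log2(FPKM + 0.1), and leaving out each library. Members and lists were chosen with earlier results of these data known. Within each list the called genes of smallest p, at most 4, were named; others named were chosen after their values were seen. A planned comparison of protein C-termini was not run. Depth limits the scarcest member, Dnajb9, most: at 290 to 367 counts per library, counting error is a large part of its spread.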

Additional observations from a re-analysis of the deposited data

How the results depend on the processing

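With 14 alternatives, the counts over all genes (1631 higher, 1496 lower) moved by over 1.5 times with the mRNA-length trend removed (646 and 729), for higher genes with the gene-length trend removed (945), and for lower genes on log2(FPKM + 1) (901) and log2(FPKM + 0.1) (909). Leaving out 1 library gave 984 to 1753 higher and 914 to 1644 lower; RANKL replicate 2 (1010 and 914), albiflorin replicate 1 (984 and 977) and albiflorin replicate 2 (1025 higher) moved these counts most. Members called higher went from 3 to 1 with no filter, either FPKM pseudocount, either trend removed, the replicate block, and without any 1 library except albiflorin replicate 3 (1 to 3). Members called lower went from 2 to 1 with either trend removed and were 2 to 3 on leaving out 1 library. The replicate numbers did not pair the samples (correlations of same-numbered deviations 0.104, -0.126 and -0.212); with the replicate block 1358 genes were higher and 1214 lower, 1 member was higher (Herpud1) and 2 were lower. Among the members, the list genes named by rule, and Ddit3, Pdia3, Stt3b and Ero1lb, values that changed sign, none of them called after the change, were Calr (-0.0021) with the mRNA-length trend removed, Dnajb9 (-0.0493) with the gene-length trend removed, Fkbp2 under both (-0.16 and -0.11), Ddit3 under both (-0.241 and -0.0824) and without albiflorin replicate 2 (-0.0011, against up to 0.258 on leaving out another library), and Ssr4 (-0.0081), Sec11c (-0.0293) and Ostc (-0.0108) with the mRNA-length trend removed. Of 32 list genes named by rule, 6 kept their call throughout. The cause of these shifts was not tested; fewer libraries leave fewer residual degrees of freedom.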
